A study of Arabidopsis thaliana with 12 samples.

Results

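The results concern how the effect of overexpressing MINI ZINC FINGER 1 (MIF1) on seedling transcripts depended on light, measured on all 12 of the 12 arrays of the study, which were taken as members because each carries 1 of the 4 combinations of genotype and light. Whole seedlings of Arabidopsis thaliana, ecotype Columbia, carried either MIF1 under the constitutive 35S promoter (MIF1OE) or the empty vector as the control, and their total RNA was measured on Affymetrix ATH1 arrays of 1 colour, with 3 in each of the 4 groups. All seeds were stratified for 2 days on MS medium with 50 µg/mL hygromycin and grown at 22 °C for 7 days, and hygromycin-resistant seedlings were harvested. The photoperiod of light-grown seedlings was 16 h with 8 h of darkness, and dark-grown seedlings had only 2 h of light to start germination.

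Vector seedlings carried pRRR2222 (written pRR2222 in some labels), and seedlings of both genotypes were of the T2 generation. The MIF1OE seedlings came from only 2 transgenic lines, line 124 with 2 samples in each light condition and line 127 with 1, and the vector seedlings came from lines 1, 4 and 7, so that each of the 6 plant sources gave 1 light and 1 dark array. The 2 samples of line 124 share 1 line and are not independent lines. All of these seedlings carry a transgene and the hygromycin selection, and the 35S promoter drives MIF1 in most tissues rather than where the gene is normally active. MIF1 itself is not among the genes that the probe sets name, and the transgene level is not reported here.

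MIF1 is a small protein that keeps the zinc finger of the zinc finger homeodomain transcription factors but lacks their homeodomain, and such proteins can bind and block those factors. Plants that overexpress it are known for dwarf growth, short hypocotyls also in darkness, and altered responses to gibberellin, auxin, brassinosteroid and abscisic acid. A seedling in darkness is etiolated: it elongates the hypocotyl by loosening cell walls, keeps the apical hook closed, and holds back root growth, leaf growth and chlorophyll formation. A gene that answers to the transgene in only 1 light condition, or in opposite ways in both, is therefore 1 whose light response differs between the genotypes.

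The question was whether the MIF1OE effect (MIF1OE minus vector) was the same in darkness as in light. For each probe set the effect in light was subtracted from the effect in darkness, and the result is called the interaction below. A positive interaction means that the effect was higher in darkness, and a negative one that it was lower. All effects and interactions are differences of log2(intensity + 7), where intensity is the deposited linear probe set value, and a probe set is called when its limma p-value, adjusted by Benjamini and Hochberg over the 15922 probe sets tested, lies under 0.05.

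The interaction was called for 118 probe sets, 0.741% of those tested. It was higher in darkness for 69 of them (0.433%) and lower for 49 (0.308%). With the plant source as a block, so that each dark array is set against the light array of its own source, 211 were called (1.33%), 120 higher and 91 lower, and 106 of the 118 were among them. From the same arrays, the MIF1OE effect itself was called for 157 probe sets in light (0.986%) and for 2052 in darkness (12.9%). Leaving out 1 array moved the count by over 1.5 times for 8 of the 12: it was 76 without the light array of vector line 1, 190 without that of vector line 7, and 66 without the second light array of line 124. It was 65, 59 and 60 without the dark arrays of vector lines 1, 4 and 7, and 68 without either dark array of line 124. The median interaction of all tested probe sets was -0.00, with 50.4% of them below 0.

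**Figure D1:**
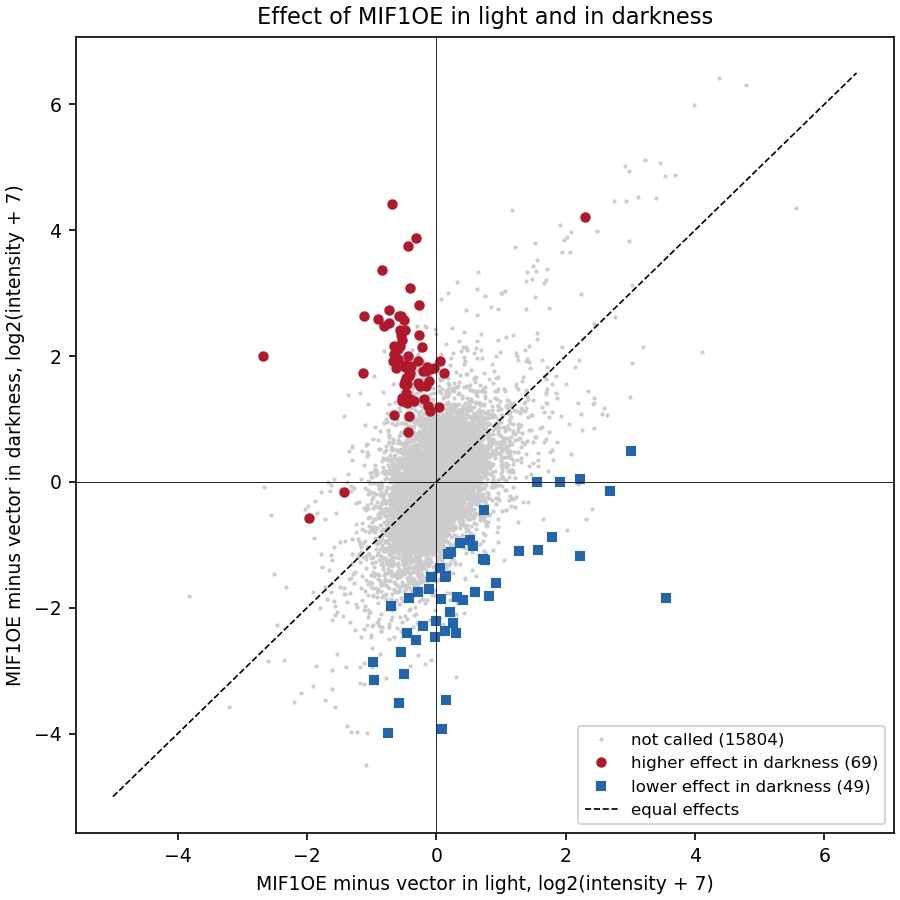
Each point is 1 tested probe set, with the MIF1OE minus vector effect in light on the horizontal axis and in darkness on the vertical axis, both as differences of log2(intensity + 7) between means of 3 arrays; the dashed line marks equal effects. The 69 probe sets called higher in darkness (red circles) lie mostly above 0 in darkness and slightly below 0 in light, and the 49 called lower (blue squares) spread from below 0 in darkness with little effect in light to above 0 in light with little effect in darkness.

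In most of the 118 the MIF1OE effect was larger in size in darkness than in light. The effect was called in darkness and not in light for 103 of them, in light and not in darkness for 7, in both for 6 and in neither for 2. The adjustment was made separately in each condition, so the same unadjusted p can be called in darkness and not in light. In darkness the genotypes did not overlap in 68 of the 69 higher and 45 of the 49 lower probe sets (36.2% of all tested). In light they did not overlap in 20 and 21 of these (13.8% of all tested). The effect in darkness was the larger in size in 104. These counts come from the arrays that chose the probe sets, so they describe the shape of the interaction and are no further test of it. Of the 118, 59 name 1 gene, 4 name several genes and 55 are unnamed here.

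Among the 49 lower probe sets the median effect was 0.21 in light and -1.75 in darkness. Darkness raised 42 of them in vector seedlings (30.3% of all tested probe sets differed between dark and light in vector seedlings, in either direction). In MIF1OE seedlings darkness raised 9 and lowered 14 of the 49 (24.2% of all tested differed). The median dark minus light difference of the 49 was 2.00 in vector seedlings and -0.08 in MIF1OE seedlings. The usual pattern was thus a gene that is low in light, high in dark-grown vector seedlings and low or less high in dark-grown MIF1OE seedlings. The lowest mean level of any probe set tested was an intensity of 23.7. The group mean lay under it in light-grown vector seedlings for 10 of the 49 and in light-grown MIF1OE seedlings for 4. Effects in light are poorly resolved for those.

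AT4G37220, a member of the cold acclimation protein family WCOR413, had the most negative interaction of the genes named. Its intensity was 60.4, 54.0 and 28.2 in light-grown vector seedlings and 57.7, 67.5 and 29.6 in light-grown MIF1OE seedlings. In darkness it was 747, 2358 and 1213 in vector seedlings and 85.2, 86.9 and 65.8 in MIF1OE seedlings. The dark-grown vector arrays stood far above the other 9, and the light-grown groups overlapped. The interaction was -4.01 ± 0.56 (SE, limma adjusted p = 0.00871), made of an effect of 0.10 in light and -3.92 in darkness.

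AT3G48970 was measured at 55.2, 43.1 and 54.3 in light-grown vector, 25.5, 39.5 and 31.1 in light-grown MIF1OE, 780.1, 703 and 607 in dark-grown vector and 65.0, 52.6 and 46.3 in dark-grown MIF1OE seedlings. Only the dark-grown vector arrays were high. Its interaction of -2.94 ± 0.26 on the log2 scale (limma adjusted p = 6.933e-04) was called with any single array left out, with adjusted p no higher than 0.00408.

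ATPMEPCRD, a pectin methylesterase that removes methyl groups from wall pectin, was induced by darkness in both genotypes but less in MIF1OE. Its intensity was 43.3, 22.4 and 39.2 in light-grown vector and 36.8, 44.6 and 49.7 in light-grown MIF1OE seedlings, against 1116, 1679 and 1105 in dark-grown vector and 239, 232 and 239.7 in dark-grown MIF1OE seedlings. The light-grown groups overlapped and the dark-grown groups lay far apart. Dark minus light differences were 4.48, 5.84 and 4.59 log2 units in vector lines 1, 4 and 7 and 2.49, 2.21 and 2.12 in the MIF1OE sources, with an interaction of -2.69 ± 0.32 (limma adjusted p = 0.0061).

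WAG2, a protein kinase related to PINOID that acts on auxin transport in seedlings, followed the same course. Its intensity was 45.6, 22.5 and 25.3 in light-grown vector, 15.7, 32.8 and 22.2 in light-grown MIF1OE, 299, 451 and 322 in dark-grown vector and 68.0, 67.1 and 37.2 in dark-grown MIF1OE seedlings. Dark-grown MIF1OE arrays lay between the light arrays and the dark-grown vector arrays, with the line 127 array inside the light range. The interaction was -2.21 ± 0.42 (limma adjusted p = 0.0367). This call ended when any of 10 of the 12 arrays was removed (adjusted p reaching 0.0899) and with the block (adjusted p = 0.0541).

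Other genes of this form were UGT76E2, a UDP-glycosyltransferase (-2.21 ± 0.36 log2 units, limma adjusted p = 0.0163), and AT1G72070 (-1.93 ± 0.30, adjusted p = 0.0144). UGT76E2 was dim in light, at 16.5, 32.3 and 13.5 in vector and 22.3, 17.5 and 19.2 in MIF1OE seedlings. AT2G14900, of the gibberellin-regulated GASA family, was at 941, 879.6 and 814 in dark-grown vector and 263, 284 and 249 in dark-grown MIF1OE seedlings, with an interaction of -1.59 ± 0.30 log2 units (limma adjusted p = 0.0369). Its call was not examined with arrays left out. AT1G27030, AT4G35720 and AT5G57760 had interactions of -2.61, -2.50 and -2.18. Their calls ended when any of 11, 9 and 7 of the 12 arrays, respectively, was removed, with adjusted p reaching 0.116, 0.109 and 0.0843. That of AT1G27030 ended with the block too (adjusted p = 0.0574).

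AT3G23760 had another form, with the dark-grown vector arrays inside the range of the light arrays. Its intensity was 179, 165 and 152 in dark-grown vector and 27.3, 24.2 and 38.0 in dark-grown MIF1OE seedlings, while the light arrays ran from 96.6 to 259 in vector and from 168 to 200.4 in MIF1OE seedlings. The dark-grown MIF1OE arrays were the low ones. Its interaction was -2.50 ± 0.39 log2 units (limma adjusted p = 0.0147). AT3G06070 had a MIF1OE effect below 0 in both light conditions, -0.98 log2 units in light (limma adjusted p = 0.0315) and -2.86 in darkness (limma adjusted p = 8.002e-06), with an interaction of -1.88 ± 0.27 (adjusted p = 0.00935).

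Both AT1G14890 and AT1G62770, of the plant invertase and pectin methylesterase inhibitor family, were called lower, at -1.99 ± 0.34 and -1.95 ± 0.37 log2 units (limma adjusted p = 0.0218 and 0.0367). AT1G14890 was at 845, 871 and 839.9 in dark-grown vector and 393, 247 and 471 in dark-grown MIF1OE seedlings, and at 254, 310.1 and 202 in light-grown vector and 517, 349.9 and 442 in light-grown MIF1OE seedlings. Its groups did not overlap in light (as in 13.8% of all tested probe sets) or in darkness (36.2%), and they stood in opposite order. The effect in light was not called for either gene (limma adjusted p = 0.194 and 0.271). Both calls ended without any 1 of the 3 dark-grown vector arrays, among 4 and 8 arrays in all (adjusted p up to 0.0601 and 0.0988).

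In a smaller set of genes MIF1OE seedlings had in light already the level that vector seedlings reached in darkness. AT5G10210 was measured at 3.02, 5.60 and 6.60 in light-grown vector, 48.6, 147 and 99.1 in light-grown MIF1OE, 117, 51.7 and 122 in dark-grown vector and 133, 122 and 137 in dark-grown MIF1OE seedlings. Only the light-grown vector arrays were low, below the lowest mean level tested, so that the fold in light is understated. The effect was 3.02 log2 units in light (limma adjusted p = 0.002) and 0.49 in darkness (limma adjusted p = 0.412), and the interaction of -2.53 ± 0.50 (limma adjusted p = 0.0446) was not called with the block (adjusted p = 0.0541) or without any 1 of 9 arrays (adjusted p up to 0.123).

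TBL38, a trichome birefringence-like protein of the family that acetylates wall polysaccharides, had the same form. It was at 86.5, 37.3 and 61.2 in light-grown vector and 189, 253 and 291 in light-grown MIF1OE seedlings, and at 205, 250.2 and 231 in dark-grown vector and 298, 191 and 207 in dark-grown MIF1OE seedlings. The light-grown vector arrays were the only low ones. Its interaction was -1.92 ± 0.38 log2 units (limma adjusted p = 0.0413, with the block 0.077). The class III peroxidase AT2G37130, of the secreted haem peroxidases that act on the wall, was at 556, 484 and 861 in light-grown vector and 1875, 1162 and 2824 in light-grown MIF1OE seedlings, and at 3274, 4014 and 3663 against 1989, 1089 and 2297 in darkness. Its interaction of -2.65 ± 0.48 log2 units was called (limma adjusted p = 0.0321) although neither effect was (limma adjusted p = 0.0563 and 0.0566), and the call ended without any 1 of 9 arrays (adjusted p up to 0.0851).

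Effects of opposite sign, both called, were found for 4 of the 118 probe sets. The single named gene among them was AT5G39520, at 25.6, 21.7 and 15.5 in light-grown vector, 112, 83.0 and 194 in light-grown MIF1OE, 83.6, 164 and 184 in dark-grown vector and 82.3, 41.2 and 53.2 in dark-grown MIF1OE seedlings. MIF1OE seedlings were above vector seedlings in light and below them in darkness, with no overlap in either. The effect was 2.22 log2 units in light (limma adjusted p = 0.0101) and -1.17 in darkness (adjusted p = 0.045), giving an interaction of -3.40 ± 0.49 (adjusted p = 0.0098).

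The unnamed probe set 248236_at was another of the 4. It was measured at 27.4, 16.8 and 16.3 in light-grown vector, 318, 196 and 455 in light-grown MIF1OE, 630.2, 788 and 523 in dark-grown vector and 184, 126 and 221 in dark-grown MIF1OE seedlings. The MIF1OE arrays stood above the vector arrays in light and below them in darkness, with no overlap. Its interaction was -5.39 ± 0.43 log2 units (limma adjusted p = 4.081e-04), the smallest adjusted p of the 15922. The unnamed 254550_at ran the other way, at 185, 48.7 and 53.2 against 2.24, 13.5 and 5.89 in light and at 55.4, 53.7 and 45.8 against 257, 231 and 198 in darkness, vector first. Its MIF1OE arrays were low in light and high in darkness, with an interaction of 4.69 ± 0.58 log2 units (limma adjusted p = 0.0067). The unnamed 251226_at was at 3.59, 77.4 and 3.89 in dark-grown vector and 385, 476 and 499 in dark-grown MIF1OE seedlings. Its dark arrays of vector lines 1 and 7 lay far under the lowest mean tested (an intensity of 23.7), and that of line 4 did not. This probe set had the most positive interaction, 5.11 ± 0.88 log2 units (limma adjusted p = 0.0233). With a pseudocount of 1 it was 5.95 and not called (adjusted p = 0.054), larger in size than the -5.78 of 248236_at at that setting, and its call also ended without any 1 of 7 arrays (adjusted p up to 0.0592).

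**Figure D2:**
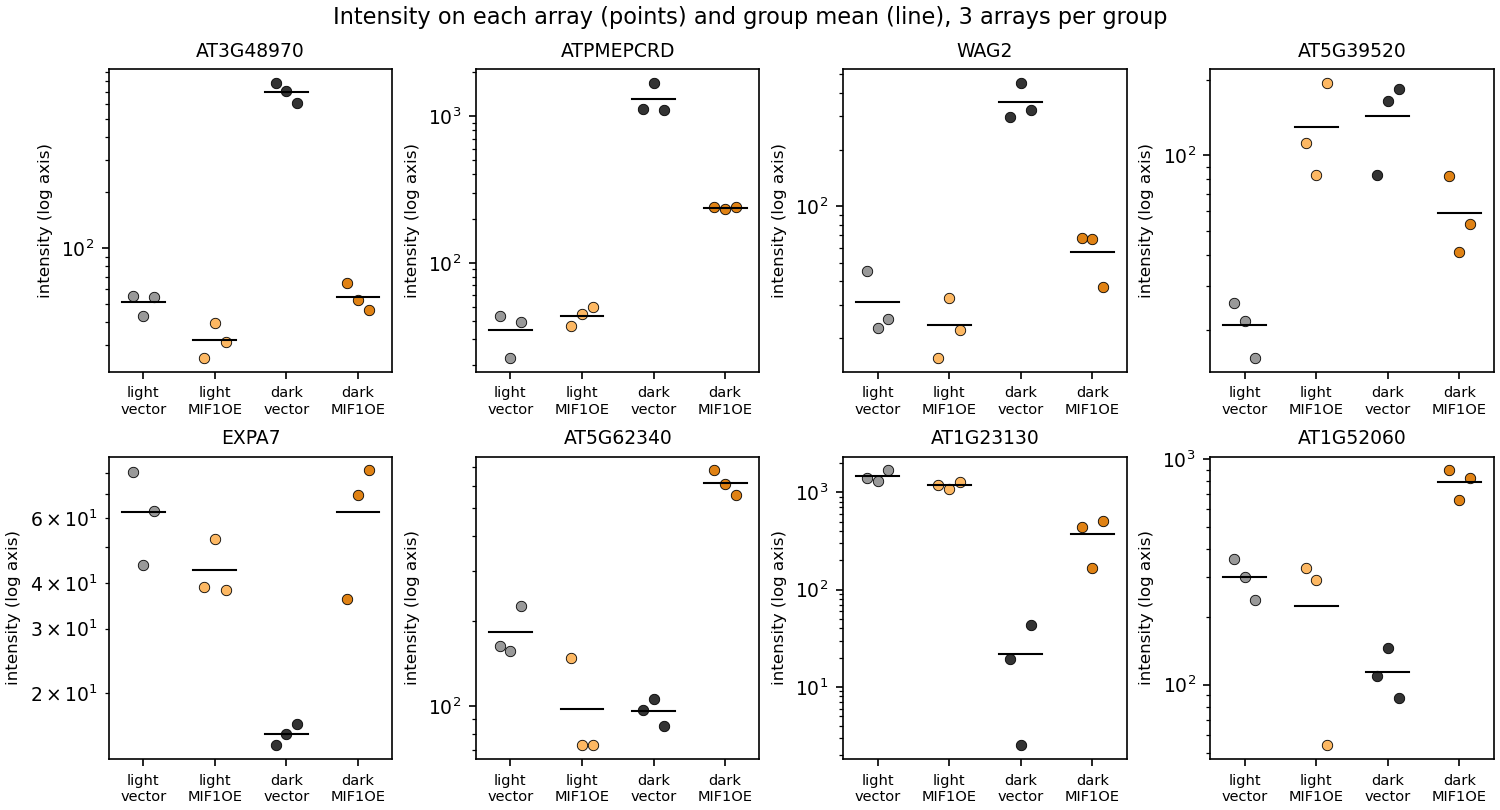
Deposited intensity on each of the 12 arrays (points, 3 per group) with the group mean (line) for 8 of the genes described, on a log axis. AT3G48970, ATPMEPCRD and WAG2 are high only or mainly in dark-grown vector seedlings, AT5G39520 changes order between light and darkness, and EXPA7, AT5G62340, AT1G23130 and AT1G52060 are higher in dark-grown MIF1OE than in dark-grown vector seedlings.

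Among the 69 higher probe sets the median effect was -0.46 in light and 1.82 in darkness. The effect in darkness was above 0 in 67, and that in light below 0 in 65. The choice of positive interactions favours these signs, so they are descriptions. Darkness lowered 32 of the 69 and raised 1 in vector seedlings, and raised 56 and lowered 1 in MIF1OE seedlings. Of all tested probe sets, 30.3% differed between dark and light in vector and 24.2% in MIF1OE seedlings, in either direction. The mean level of dark-grown vector seedlings lay under the lowest mean tested (an intensity of 23.7) in 23 of the 69, and the folds of those are understated.

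The named genes described next are ordered by family, a grouping made after the values were seen, which gets no test and no count. They are the class III peroxidases AT1G30870, AT4G26010, AT3G01190, AT5G17820 and AT2G39040, the jacalin lectin family members AT1G52060, AT1G52070, AT2G25980 and AT5G35940, and the invertase and pectin methylesterase inhibitor family members AT5G62340 and AT4G25250. Others are the extensin-like AT3G54580, AT5G10130 of the Ole e 1 and extensin family, the SKU5-similar wall proteins sks15 and sks16, and the root hair expansin EXPA7. Called members of the same or related families also stood in the lower set, namely the peroxidase AT2G37130 (-2.65 log2 units), the inhibitor family members AT1G14890 (-1.99) and AT1G62770 (-1.95) and the pectin methylesterase ATPMEPCRD (-2.69).

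AT5G62340 had the smallest adjusted p of the 69. Its intensity was 164, 157 and 227 in light-grown vector, 148, 73.1 and 73.0 in light-grown MIF1OE, 97.3, 106 and 85.5 in dark-grown vector and 681, 609 and 557 in dark-grown MIF1OE seedlings. The light-grown MIF1OE arrays lay under the light-grown vector arrays and the dark-grown MIF1OE arrays above all others. Its interaction was 3.50 ± 0.35 log2 units (limma adjusted p = 0.00181), and it was called without any single array (adjusted p no higher than 0.00939). AT4G25250, of the same inhibitor family, had an interaction of 2.88 ± 0.58 (limma adjusted p = 0.0448), which was not called with the block (adjusted p = 0.0588) or without any 1 of 10 arrays (adjusted p up to 0.124).

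Of the peroxidases, AT3G01190 was measured at 164, 145 and 199.6 in light-grown vector, 148, 77.7 and 105 in light-grown MIF1OE, 162, 266 and 184 in dark-grown vector and 736, 608 and 820.2 in dark-grown MIF1OE seedlings. The dark-grown MIF1OE arrays stood above the other 9. Its interaction was 2.43 ± 0.35 log2 units (limma adjusted p = 0.00928). AT4G26010, in contrast, was lowered by darkness in vector seedlings, from 361, 155 and 201 to 28.8, 52.8 and 18.5, while MIF1OE seedlings had 136, 191 and 73.6 in light and 131, 341 and 192 in darkness. Its dark-grown groups did not overlap, its light-grown groups did, and its interaction was 3.30 ± 0.62 log2 units (limma adjusted p = 0.0369).

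AT1G30870, AT5G17820 and AT2G39040 had interactions of 3.50 ± 0.67, 2.37 ± 0.43 and 2.23 ± 0.43 log2 units (limma adjusted p = 0.0402, 0.0285 and 0.0406). The calls of AT1G30870, AT4G26010, AT5G17820 and AT2G39040 ended without any 1 of 9, 7, 7 and 9 of the 12 arrays, with adjusted p up to 0.114, 0.106, 0.0851 and 0.116, and that of AT5G17820 ended with the block (adjusted p = 0.0568). The fixed list of class III peroxidases, which matched other genes by symbol or description, had 5 measured members and none called, with a median interaction of 0.22 log2 units.

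AT1G52060, a jacalin lectin family member, was at 361, 301 and 238 in light-grown vector, 328, 291 and 53.9 in light-grown MIF1OE, 109, 146 and 87.3 in dark-grown vector and 895, 659 and 824 in dark-grown MIF1OE seedlings. The light-grown line 127 array stood far below the other 5 light arrays. The interaction was 3.47 ± 0.71 log2 units (limma adjusted p = 0.0498), and the call ended without any 1 of 10 arrays (adjusted p up to 0.13). AT1G52070, its neighbour by locus number and a gene whose probes could share signal with it, had 2.97 ± 0.57 (adjusted p = 0.0402, up to 0.114 without any 1 of 9 arrays).

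AT2G25980, of the same family, was at 202, 174 and 149 in dark-grown vector and 718, 1022 and 527 in dark-grown MIF1OE seedlings, with an interaction of 2.68 ± 0.40 log2 units (limma adjusted p = 0.0112) that was called without any single array. AT5G35940 had 2.11 ± 0.40 (limma adjusted p = 0.0369), a call not examined with arrays left out. The list of ER body and jacalin lectin genes, drawn up by symbol, had 8 measured members, none called, and a median of 0.00.

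AT1G23130, of the Bet v 1-like lipid transport family, was lowered by darkness in both genotypes, and less in MIF1OE. It was at 1419, 1305 and 1687 in light-grown vector and 1185, 1074 and 1271 in light-grown MIF1OE seedlings, and at 19.2, 2.52 and 43.0 in dark-grown vector and 443, 167 and 506 in dark-grown MIF1OE seedlings. The dark-grown groups did not overlap, with every vector array at 43.0 or lower. Its interaction was 4.20 ± 0.72 log2 units (limma adjusted p = 0.0227), lost without the second light array of line 124, the dark array of vector line 1 or the first dark array of line 124 (adjusted p up to 0.0619). The call also ended with a pseudocount of 1. Leaving out both arrays of vector line 1, vector line 4, the first sample of line 124 or line 127 ended it too.

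AT5G10130 was at 69.1, 43.3 and 56.4 in light-grown vector, 40.5, 23.9 and 9.17 in light-grown MIF1OE, 26.1, 18.2 and 15.05 in dark-grown vector and 137, 128 and 217 in dark-grown MIF1OE seedlings. Its MIF1OE arrays were below the vector arrays in light and above them in darkness without overlap, though the effect in light was not called (limma adjusted p = 0.181). The interaction was 3.75 ± 0.49 log2 units (limma adjusted p = 0.00749). The sks15 interaction was 3.22 ± 0.47 (limma adjusted p = 0.0101) and that of sks16 1.72 ± 0.34 (limma adjusted p = 0.0412, not examined with arrays left out). AT5G60520, a protein related to late embryogenesis abundant proteins, had 2.86 ± 0.55 (limma adjusted p = 0.0384, up to 0.108 without any 1 of 8 arrays).

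The extensin-like AT3G54580 had an interaction of 2.91 ± 0.60 log2 units (limma adjusted p = 0.0498, up to 0.13 without any 1 of 10 arrays). HRGP1, a hydroxyproline-rich wall protein of similar sequence, was not called without the block (2.62 ± 0.54, limma adjusted p = 0.0504) and was with it (adjusted p = 0.00258). It was at 103, 125 and 63.2 in dark-grown vector and 819.5, 414 and 490.4 in dark-grown MIF1OE seedlings, with no overlap, as in 36.2% of all tested probe sets. Its probes can also match related extensin genes, so its signal and that of AT3G54580 cannot be separated with certainty.

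EXPA7, an expansin of root hair cells, was at 80.2, 44.7 and 62.9 in light-grown vector, 39.0, 52.8 and 38.1 in light-grown MIF1OE, 14.4, 15.5 and 16.4 in dark-grown vector and 36.3, 69.5 and 81.2 in dark-grown MIF1OE seedlings. The dark-grown vector arrays were the low ones and the dark-grown MIF1OE arrays lay in the range of the light arrays or close to it. The interaction was 2.01 ± 0.37 log2 units (limma adjusted p = 0.0324, up to 0.0839 without any 1 of 8 arrays). All dark-grown vector arrays lay under the lowest mean tested (an intensity of 23.7). The call also ended with a pseudocount of 32, and the interaction ran from 1.28 to 2.57 over all settings. EXPA18, the other root hair expansin measured, was at 30.9, 41.3 and 26.3 in dark-grown vector and 59.0, 147 and 138 in dark-grown MIF1OE seedlings, and its interaction of 1.70 ± 0.44 was not called (limma adjusted p = 0.114). With 1 of the 12 arrays left out it was called (limma adjusted p = 0.0264).

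The list of root epidermis genes had 3 of its 4 named members measured, EXPA7, EXPA18 and PYK10, a beta-glucosidase of root ER bodies, with 1 called and a median interaction of 1.70 log2 units. Its summed intensity was 4237 to 4841 in light-grown vector, 3765 to 5268 in light-grown MIF1OE, 4239 to 5067 in dark-grown vector and 4999 to 5221 in dark-grown MIF1OE seedlings, nearly all of it PYK10, whose interaction was 0.10 ± 0.22. No member was at 0 on any array. The part of root tissue in the interaction of the wall protein genes was not tested, and in RNA from whole seedlings fewer cells of a type and less RNA per cell cannot be told apart.

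**Figure D3:**
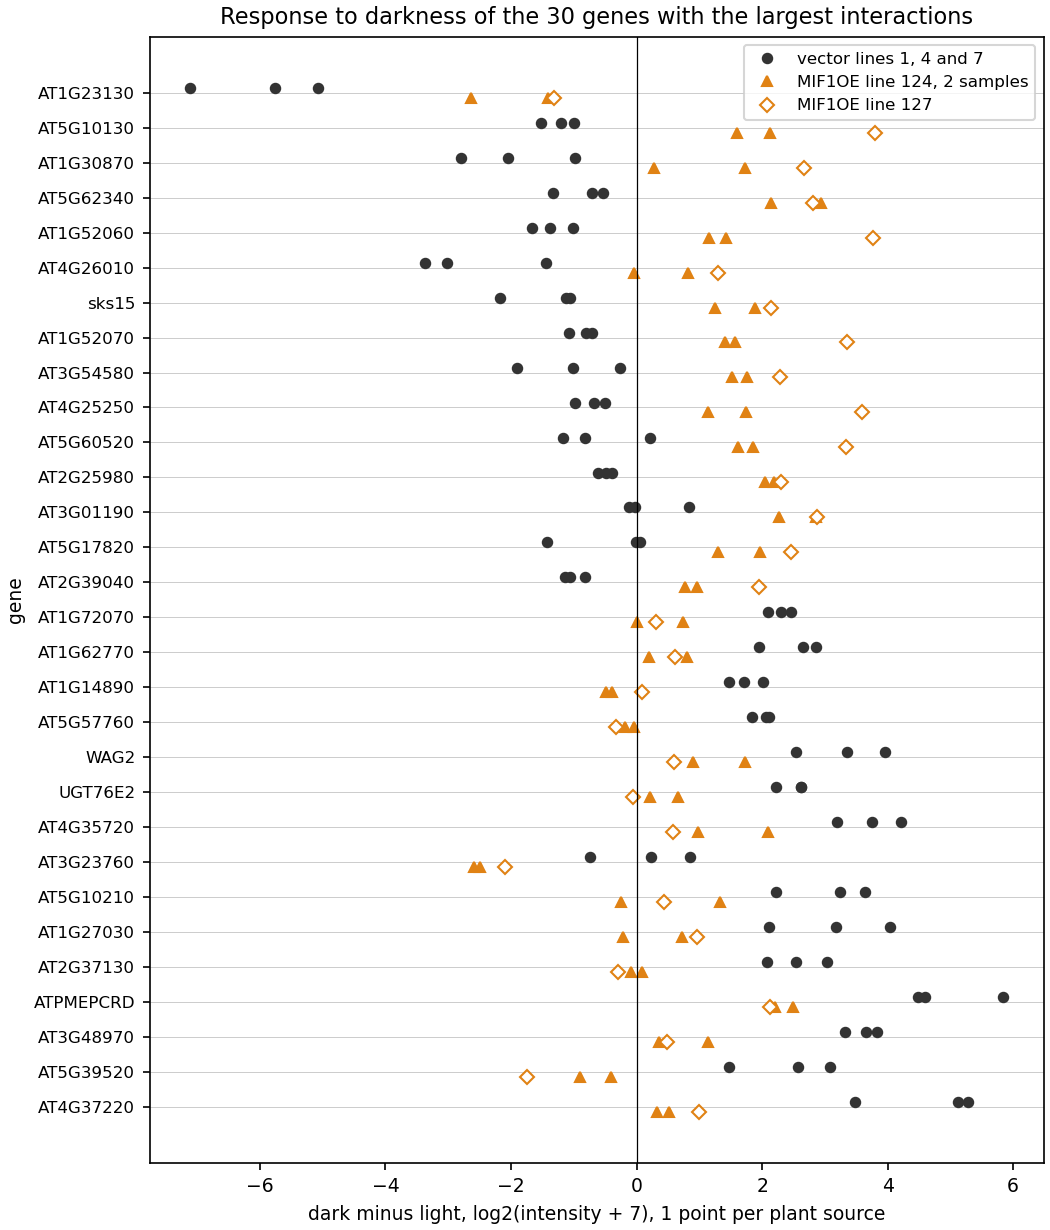
Dark minus light difference of log2(intensity + 7) for each of the 6 plant sources, for the 15 most positive and 15 most negative called interactions of named genes whose vector and MIF1OE sources do not overlap, a condition of the choice. Vector lines 1, 4 and 7 are dark circles, the 2 samples of line 124 are triangles and line 127 is an open diamond; in the upper 15 genes the MIF1OE sources lie to the right of the vector lines, and line 127 is often the farthest right.

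Line 127 stood apart within this set. Its light array was the lowest of the 6 light arrays in 47 of the 69 higher probe sets, and its dark minus light difference was the highest of the 3 MIF1OE sources in 42. Among the 49 lower probe sets its light array was the lowest in 4. Its difference was the highest in 15 of the 49 and the lowest in 21. The same counts were not made over all tested probe sets, so whether this is particular to the 69 was not tested. The median effect in light of the 69 was -0.31 log2 units with the line 124 arrays alone and -0.70 with the line 127 array alone. The median interaction was 2.14 with the light arrays of line 124 and 2.41 with that of line 127, beside 2.14 with all 3. For the 49 lower probe sets these medians were -2.08, -2.19 and -2.17. Since all 3 MIF1OE sources entered the choice of the 118, these are descriptions.

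The 2 named genes of the higher set whose effect was called only in light were AT3G56060, of the HOTHEAD-like oxidoreductases, and AT1G03400. AT3G56060 was at 100.5, 94.3 and 95.6 in light-grown vector and 19.2, 23.3 and 16.2 in light-grown MIF1OE seedlings, with dark arrays between 9.51 and 28.7. Only the light-grown vector arrays were high. Its effect in light was -1.97 log2 units (limma adjusted p = 2.925e-04), in darkness -0.57 (limma adjusted p = 0.0547), and the interaction 1.40 ± 0.25 (limma adjusted p = 0.0285). GSTU28, a glutathione transferase, had an interaction of 1.48 ± 0.25 (limma adjusted p = 0.0207). Its call ended without the second light array of line 124, the dark array of vector line 7 or the second dark array of line 124 (adjusted p up to 0.0581). PDF2.5, a defensin, had 2.13 ± 0.30 (limma adjusted p = 0.00928) and UGT71C1, a UDP-glycosyltransferase, 1.97 ± 0.38 (adjusted p = 0.0402). Neither of these calls was examined with arrays left out.

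Lists of genes for pathways of light growth, hormones, walls and storage were read against the background of 0.741% called and a median interaction of -0.00. Of 244 distinct genes measured in 38 lists, 3 were called (EXPA7, ATPMEPCRD and GSTU28), and 4 with the block, which added HRGP1. In 24 of the 28 lists with at least 3 measured members none was called.

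None of the photosystem, antenna and carbon fixation genes in the lists had a called interaction. Photosystem and antenna proteins (8 measured) had a median dark minus light difference of -1.31 log2 units in vector and -1.36 in MIF1OE seedlings, with a median interaction of -0.14. Their summed intensity was 20983 to 27018 in light-grown vector and 19078 to 19241 in light-grown MIF1OE seedlings, and 6659 to 12746 and 5931 to 9273 in the dark-grown groups. The largest interaction in that list was PSB27, a photosystem II assembly protein, at -0.80 ± 0.32 (limma adjusted p = 0.344). PRK, the phosphoribulokinase of the Calvin cycle, was at 1208, 966 and 1053 in dark-grown vector and 227, 435 and 481 in dark-grown MIF1OE seedlings, with -1.19 ± 0.34 (limma adjusted p = 0.154).

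In chlorophyll synthesis, 8 genes were measured with a median interaction of -0.44 log2 units. PORB, a protochlorophyllide oxidoreductase, was at 1916, 1562 and 1407 in dark-grown vector and 391, 813 and 549 in dark-grown MIF1OE seedlings, with -1.43 ± 0.38 (limma adjusted p = 0.129). CHLM, a methyltransferase of the same pathway, had -0.96 ± 0.23 (limma adjusted p = 0.102). For both the dark-grown groups did not overlap, as in 36.2% of all tested probe sets. Of 69 plastid-encoded genes, 52 lay below 0 with a median of -0.24 and none was called.

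**Figure D4:**
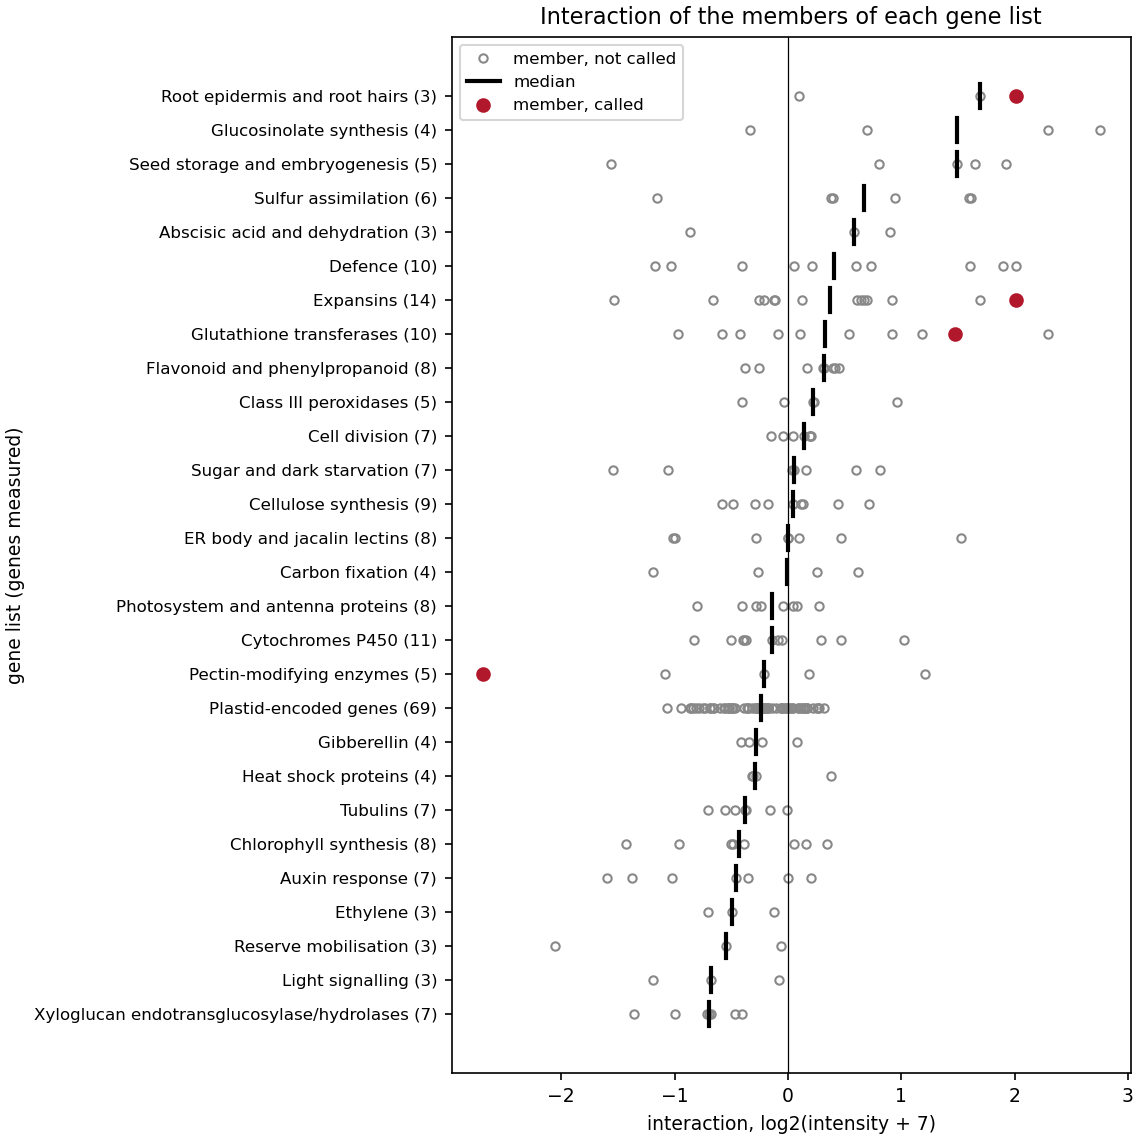
Interaction, as a difference of log2(intensity + 7) effects, of every measured member of the 28 gene lists with at least 3 measured members, ordered by list median (black bars); grey open circles are members not called and red filled circles the called ones. Medians run from -0.69 for xyloglucan endotransglucosylase/hydrolases to 1.70 for root epidermis genes, and the called members are EXPA7 (in both the expansin and the root list), GSTU28 and ATPMEPCRD.

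Of the genes of cell elongation, all 7 xyloglucan endotransglucosylase/hydrolases measured, enzymes that cut and rejoin wall xyloglucan, lay below 0 with a median of -0.69 log2 units, and none was called. XTH18 had -1.36 ± 0.62 (limma adjusted p = 0.446). All 7 tubulins lay below 0 as well, with a median of -0.38 and none called, and TUA1 had -0.70 ± 0.27 (limma adjusted p = 0.327). Of 14 expansins 8 lay above 0, with a median of 0.37 and EXPA7 called, while EXLA2 had -1.53 ± 0.62 (limma adjusted p = 0.358). Cellulose synthesis (9 measured) had a median of 0.04 and no member called.

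Of the other lists, the 10 glutathione transferases had a median of 0.32 log2 units with GSTU28 called, and the 5 pectin-modifying enzymes -0.21 with ATPMEPCRD called. No member was called among 10 defence genes (median 0.41), 8 of flavonoid and phenylpropanoid synthesis (0.31), 7 of cell division (0.14), 7 of sugar status and dark starvation (0.06), 4 of carbon fixation (-0.01), 11 cytochromes P450 (-0.14) and 4 heat shock genes (-0.29). ECS1, a defence-related protein, had 2.01 ± 0.87 (limma adjusted p = 0.404).

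Among hormone lists, auxin response genes (7 measured, none called) had a median of -0.46 log2 units. IAA29, an Aux/IAA repressor, was at 43.6, 143 and 99.7 in dark-grown vector and 19.5, 12.2 and 17.5 in dark-grown MIF1OE seedlings, with an interaction of -1.37 ± 0.54 (limma adjusted p = 0.337). GH3.3, an enzyme that conjugates auxin to amino acids, had -1.60 ± 0.74 (limma adjusted p = 0.447). No member of the gibberellin (4 measured), ethylene (3) or abscisic acid (3) lists was called, with medians of -0.28, -0.50 and 0.58, nor of the light signalling list (3), with -0.68.

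Genes of seed storage (5 measured, median interaction 1.49 log2 units) and of reserve mobilisation (3 measured, median -0.55) had no called interaction. ICL, the isocitrate lyase of the glyoxylate cycle, was at 6.20, 31.8 and 9.52 in light-grown vector, 373, 235 and 469 in light-grown MIF1OE, 632, 1001 and 791 in dark-grown vector and 3352, 4756 and 2317 in dark-grown MIF1OE seedlings. All 3 MIF1OE arrays were above all 3 vector arrays in either light condition. Its effect was 4.11 log2 units in light (limma adjusted p = 5.221e-04) and 2.06 in darkness (adjusted p = 0.00698), with an interaction of -2.05 ± 0.56 that was not called (adjusted p = 0.138).

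PAP85, a vicilin-like seed protein, had an interaction of 1.93 ± 0.74 log2 units (limma adjusted p = 0.323). Of the 5 seed genes 4 had interactions above 0, and OLEO3 went the other way with -1.56. OLEO3 was at 320, 256 and 78.3 in dark-grown vector and 44.1, 120 and 28.7 in dark-grown MIF1OE seedlings. The summed intensity of the 5 seed genes measured was 45.8 to 71.6 in light-grown vector, 133 to 207 in light-grown MIF1OE, 137 to 449.7 in dark-grown vector and 295 to 2391 in dark-grown MIF1OE seedlings. That of the 3 reserve mobilisation genes was 828 to 1036, 1228 to 1498, 1548 to 2045 and 3313 to 5673 in the same order. Both sums were higher in MIF1OE than in vector seedlings in light, and the reserve sum in darkness too. The difference in the reserve sum lay mostly in ICL. For AIM1 and SDP1, its other members, the genotypes overlapped in both light conditions. In darkness AIM1 was at 714, 701 and 646 in vector and 635, 721 and 806 in MIF1OE seedlings. SDP1 was at 203, 343 and 273 against 222, 197 and 190 there. The part of seed or young-seedling tissue in the interactions was not tested.

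The overall size of the light response did not differ detectably between the genotypes. The root mean square of the dark minus light difference over all tested probe sets was 0.752, 0.939 and 0.870 log2 units in vector lines 1, 4 and 7 and 0.920, 0.811 and 0.721 in the MIF1OE sources (124, 124 and 127). The ranges overlapped, with means of 0.854 ± 0.0947 and 0.817 ± 0.0995 (SD, n = 3 each). The difference of -0.0365 had an exact two-sided permutation p = 0.7, where 0.1 is the smallest that 3 against 3 can give. Without line 127 it was 0.0115 and without vector line 4 it was 0.00621.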

How the data were processed

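The deposited values are probe set intensities on a linear scale, which the authors computed with GCOS, the Affymetrix software, per the submitters' processing notes, of a version not given in the sources used here. A 2% trimmed mean was 150.01 on all arrays, so this scaling was kept. Median intensities per array were 57.4 to 70.4, and the number of arrays limits the precision. No detection calls were used.

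Of 22810 probe sets, 64 controls and 6824 dim ones (mean of the 12 arrays under the 30th percentile) were dropped, leaving 15922. On log2(intensity + 7), which understates folds of dim probe sets, limma 3.58.1 in R 4.3.3 fitted the 4 group means, and adjusted p-values (Benjamini-Hochberg) cover all 15922. The fit was tested on simulated data. Genes come from the platform annotation and RefSeq tables: 13513 probe sets name 1 gene, 503 several and 8730 are unnamed here. Clauses on what genes do are general background.

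Dark and light arrays of 1 source shared deviations from their group means (r = 0.233 to 0.339 over probe sets, 6 sources). The pairing comes from the plant line and, within line 124, from the replicate number. Where nothing says that samples were separate cultures, p-values measure the spread between these samples. No pair of the 12 arrays was identical.

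Genes named are the 15 largest interactions each way among called probe sets of 1 gene whose sources did not overlap, called and up to 2 uncalled members of each list, and genes with called effects of opposite sign. At most 2 unnamed probe sets each way are given. TBL38, AT3G06070, AT2G14900, AT5G35940, AT1G03400, AT3G56060, sks16, PDF2.5, UGT71C1, OLEO3, AIM1 and, as the only member measured of its list, HRGP1 fall outside that rule and were chosen after their values were seen. Their values with arrays left out were not examined, so these genes may look firmer than others with like adjusted p. The comparison and the lists were chosen with earlier results of these data known. Alternatives were the block, other filters, pseudocounts, scalings and priors, and arrays, sources or lines left out.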

Additional observations from a re-analysis of the deposited data

Results flagged for a closer look

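The MIF1OE effect differed between darkness and light, by the interaction test, for 118 probe sets. In 4 of them both effects were called with opposite signs. These were the unnamed 248236_at, with an interaction of -5.39 log2 units, AT5G39520 with -3.40, the unnamed 258923_at with -2.67 and the unnamed 254550_at with 4.69. The first 3 were higher in MIF1OE than in vector seedlings in light and lower in darkness, and the last was the reverse. The probe set 258923_at was at 38.4, 48.0 and 35.2 in light-grown vector, 186, 155 and 132 in light-grown MIF1OE, 84.7, 145 and 119 in dark-grown vector and 66.6, 39.6 and 75.1 in dark-grown MIF1OE seedlings, without overlap in either light condition. Of all tested probe sets, 13.8% had no overlap in light and 36.2% had none in darkness.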

How the results depend on the processing

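The 118 called interactions became 211 with the replicate block, 63 with a filter at the 50th percentile, 78 with a pseudocount of 1 and 9 with line 127 as the only MIF1OE source, a fit in which the lone sample of a group is assumed to vary like the others. Leaving out single arrays gave 59 to 190, and leaving out both arrays of a plant source gave 31 to 80; these fits have fewer samples. Without a filter, with a pseudocount of 32, with median-centred or quantile-normalized arrays and with a trended robust prior the counts were 105, 139, 140, 165 and 115. The higher calls outnumbered the lower ones by 69 to 49, and the lower outnumbered the higher, 33 to 30, at the 50th percentile filter; the cause was not tested. Of 36 called probe sets named by the rule, 14 were called with any single array left out and 4 under every setting that gave a value (AT3G48970, AT5G10130, AT5G62340 and 248236_at), and none changed direction. The difference in the size of the light response changed sign without both arrays of line 127 (0.0115) or of vector line 4 (0.00621), and its lowest value was -0.0878. Probe sets near background limit what can be read from dim groups.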

Other observations

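The light arrays of each group differed widely from one another for BCAT4 and GSTU20. BCAT4, an aminotransferase of methionine-derived glucosinolate synthesis, was at 1151, 94.4 and 502 in light-grown vector seedlings and 106, 860.0 and 134 in light-grown MIF1OE seedlings. GSTU20, a glutathione transferase, was at 1752, 229.6 and 959 and at 187, 1126 and 197 in the same groups. The light arrays of vector line 1 and of the second sample of line 124 were the high ones for both genes, and each group holds high and low arrays. Their interactions, 2.75 ± 1.34 and 2.29 ± 1.10 log2 units, were not called (limma adjusted p = 0.481 and 0.474). The list of glucosinolate genes had 4 measured members, a median interaction of 1.50 and none called, and that of 6 sulfur assimilation genes a median of 0.67 and none called.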
